A study of Homo sapiens with 4 samples.

Results

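The genes described here set how strongly the translation initiation factor eIF2 is phosphorylated on its alpha subunit. They were fixed by name as 9 genes of the 20263 listed in each count table, and all 9 were found and passed the filter on low counts. They are the kinases EIF2AK1, EIF2AK2, EIF2AK3 and EIF2AK4, the phosphatase subunits PPP1R15A and PPP1R15B, the substrate EIF2S1, and the mitochondrial relay DELE1 and OMA1. RNA was sequenced from HCT116, an established colorectal carcinoma cell line labelled wild type, in 2 groups of 2 libraries collected after 24 hours. The DMSO group received the solvent at 0.1%, and no solvent level is given for the HJ-23 group. The HJ-23 group received 30 µM of HJ-23, which the series title describes as derived from piperine; the treatment label of these libraries reads HJ-25, and the name in their titles is used. No source states that replicates were separate cultures, so the p-values reflect how these libraries vary, and that variation may be technical.

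Phosphorylated eIF2-alpha blocks eIF2B, the exchange factor that recharges eIF2 with GTP, so general translation slows while a few mRNAs such as ATF4 are translated more. Each kinase answers a different stress: EIF2AK1 (HRI) to heme shortage and mitochondrial stress, EIF2AK2 (PKR) to double-stranded RNA, EIF2AK3 (PERK) to unfolded protein in the endoplasmic reticulum and EIF2AK4 (GCN2) to amino acid shortage. PPP1R15A (GADD34) and PPP1R15B (CReP) bring protein phosphatase 1 to eIF2-alpha; the first is induced by stress as negative feedback and the second is made constitutively. OMA1, a protease of the inner mitochondrial membrane, cleaves DELE1, and the fragment binds and activates EIF2AK1 in the cytosol. The libraries measure mRNA only, not phosphorylation or protein.

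PPP1R15A had the largest difference of the 9 genes: its level was 2.65-fold higher in HJ-23, while the other 8 lay between 0.72-fold and 1.02-fold of DMSO. The promoters of the phosphatase subunits, which bear on the gene that differed and on its paralog, are shown here from 250 bases before to 50 bases after the RefSeq start (GRCh38.p14), 5′ to 3′ on the gene's strand. Capitals mark matches, on both strands, to the letters TGATGNAA (core of the C/EBP-ATF response element), TGACGTCA (the full cAMP response element), CCACG (one end of the endoplasmic reticulum stress element) and CCAAT. PPP1R15A lies at chr19:48872171-48872470 on the plus strand and PPP1R15B at chr1:204411768-204412067 on the minus strand. PPP1R15B was added as the paralog after the values were seen.
PPP1R15A promoter: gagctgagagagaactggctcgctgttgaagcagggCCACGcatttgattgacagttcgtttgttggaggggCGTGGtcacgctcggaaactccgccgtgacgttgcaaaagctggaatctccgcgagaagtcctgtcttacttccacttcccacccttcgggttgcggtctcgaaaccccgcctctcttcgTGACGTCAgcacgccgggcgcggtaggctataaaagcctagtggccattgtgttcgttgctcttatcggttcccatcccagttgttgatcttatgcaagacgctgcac
PPP1R15B promoter: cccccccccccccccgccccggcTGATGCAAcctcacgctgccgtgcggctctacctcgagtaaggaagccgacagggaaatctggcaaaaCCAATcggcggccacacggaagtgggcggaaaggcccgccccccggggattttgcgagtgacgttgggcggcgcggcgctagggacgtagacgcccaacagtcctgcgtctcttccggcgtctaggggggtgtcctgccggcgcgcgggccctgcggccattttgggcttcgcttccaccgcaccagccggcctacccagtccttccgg

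The PPP1R15A promoter held TGACGTCA once, at position -58 from the start, and CCACG or its reverse complement at positions -214 and -178. TGACGTCA was in 1.98% of the 27305 RefSeq promoters of this length, and CCACG in 37.9%. The PPP1R15B promoter held the match TGATGCAA at position -227 and CCAAT at position -159; TGATGNAA was in 3.67% of all promoters and CCAAT in 35.7%. Of the 8 members with an entry in the promoter table, PPP1R15A alone held TGACGTCA and PPP1R15B alone held TGATGNAA. The EIF2AK3 promoter held CCAAT 4 times and CCACG once, and those of EIF2S1 and OMA1 held none of the 4 motifs. EIF2AK1 has no entry in the table. These matches describe letters, not bound sites.

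Levels are given in CPM, the deposited counts scaled to the TMM-adjusted library size, and log2 fold changes compare HJ-23 with DMSO in edgeR's quasi-likelihood test, with p-values adjusted over all 14062 genes tested. At an adjusted p below 0.05, 0 of the 9 members passed, against 12 genes or 0.0853% of all genes tested. At an unadjusted p below 0.05 there were 2, PPP1R15A and EIF2AK1, against 12.0% of all genes. The treated libraries did not overlap the controls and were the higher for 1 member, PPP1R15A (24.8% of all genes), and the lower for 2, EIF2AK1 and DELE1 (21.2% of all genes). The log2 fold change was negative for 7 of the 9, with a median of -0.12 beside 0.009 over all genes tested. By the counts of members whose groups did not overlap, the 9 were near or below the share among all genes. With 2 libraries against 2 the smallest two-sided p of an exact permutation test of a single gene is 0.333, so no such test is given.

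**Figure D1:**
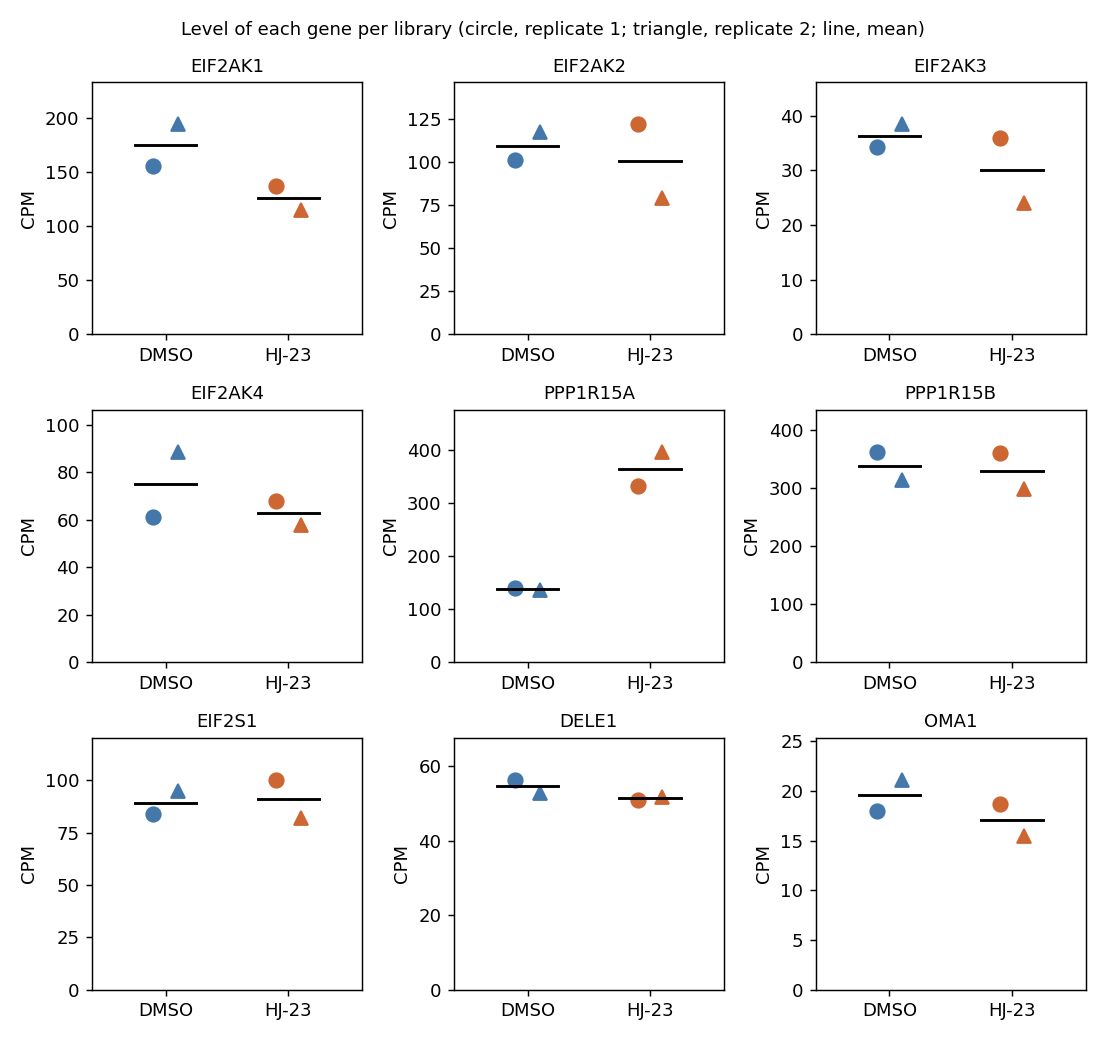
Level of each of the 9 genes in CPM (vertical axes, starting at 0) by group, with 1 point per library (circles for replicate 1, triangles for replicate 2) and a line at the group mean. PPP1R15A is at 140.5 and 135 CPM in DMSO and at 333 and 397 CPM in HJ-23, while for EIF2AK2, EIF2AK3, EIF2AK4, PPP1R15B, EIF2S1 and OMA1 the groups overlap.

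PPP1R15A (ENSG00000087074), the inducible phosphatase subunit, was at 140.5 and 135 CPM in DMSO replicates 1 and 2 and at 333 and 397 CPM in HJ-23 replicates 1 and 2. Both treated libraries were far above both controls, and the gap between the groups exceeded the gap within either. The means were 138 ± 3.66 and 365 ± 44.9 CPM (SD, n = 2 per group). The log2 fold change was 1.40 (SE 0.15, 95% interval 1.04 to 1.77), higher than in 99.3% of all genes tested, and the adjusted p was 0.0695 (edgeR), which misses the threshold. The counts behind these levels were 4365, 3959, 11807 and 13648.

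The call for PPP1R15A depended on the fit and the size of its difference varied with it, while its direction stayed the same. It passed with DESeq2 (adjusted p = 1.27e-10), which called 2.31% of genes. It passed in edgeR without a filter on low counts (adjusted p = 0.0272, with 0.185% of genes called). It also passed with a correction for transcript GC content and length (adjusted p = 0.0229, log2 fold change 1.21, with 0.185% of genes called). Over all genes, fold changes ran with the GC content of the transcript (Spearman 0.373 over 14047 genes, which are not independent), and the longest PPP1R15A transcript has 58.8% GC against 38.7% to 51.5% in the other members. Leaving out a DMSO library gave adjusted p-values of 0.00141 without replicate 1 (1.89% of genes called) and 0.00527 without replicate 2 (1.09%). Leaving out an HJ-23 library gave 0.0767 without replicate 1 and 0.150 without replicate 2, in fits where edgeR called 0 genes and 3501 and 1377 had an unadjusted p below 0.05. Over 13 alternatives the log2 fold change ran from 1.21 to 1.50 and the adjusted p from 1.27e-10 (DESeq2) to 0.258 (edgeR), with 7 past the threshold. Among the 7 was a replicate block with the numbers crossed between the groups, which was chosen after seeing the data.

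PPP1R15B (ENSG00000158615), the constitutive counterpart, was at 362 and 314 CPM in DMSO and at 360.5 and 298 CPM in HJ-23. In each group replicate 1 was the higher library, and the groups overlapped. The log2 fold change was -0.04 (SE 0.16, 95% interval -0.43 to 0.36, adjusted p = 0.942, edgeR), so a rise of the size seen for PPP1R15A lies outside its interval. Per kilobase of the longest transcript, the ratio of PPP1R15A to PPP1R15B was 0.854 and 0.948 in the DMSO libraries and 2.03 and 2.92 in the HJ-23 libraries. The mean ratio was 2.75 times as high in HJ-23, a factor that does not depend on the transcript lengths used. It is not corrected for GC content, which was 58.8% for PPP1R15A and 43.4% for PPP1R15B. With the GC and length correction the log2 fold changes lay closer together, at 1.21 for PPP1R15A and 0.07 for PPP1R15B.

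**Figure D2:**
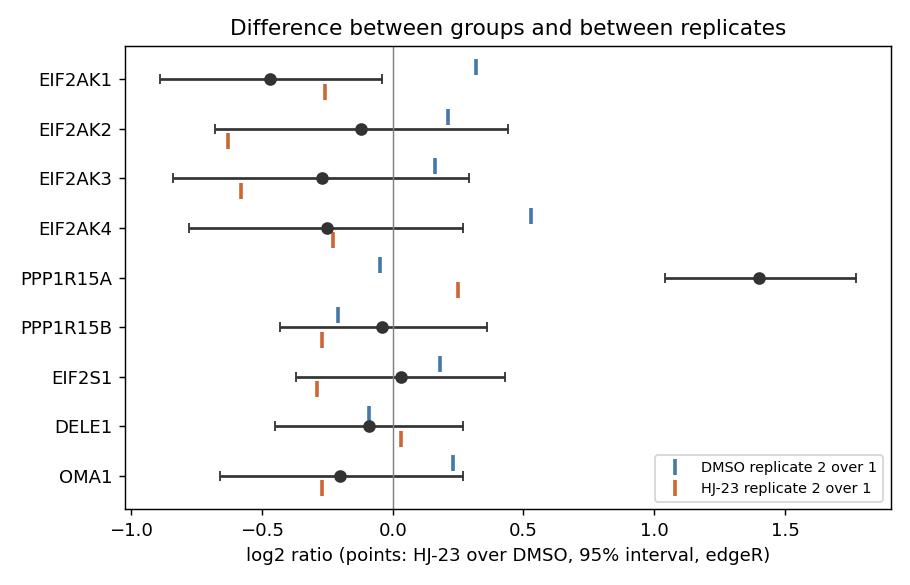
Points give the log2 ratio of HJ-23 over DMSO for each gene with its 95% interval from edgeR, and the blue and orange ticks give replicate 2 over replicate 1 within DMSO and within HJ-23. The interval of PPP1R15A runs from 1.04 to 1.77, beyond both of its ticks at -0.05 and 0.25, whereas for the kinases the ticks reach from -0.63 to 0.53.

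The 4 kinases all had log2 fold changes below 0, from -0.47 to -0.12, and none passed the threshold in this fit. EIF2AK1 (ENSG00000086232), the kinase that DELE1 activates, was at 156 and 194 CPM in DMSO and at 138 and 115 CPM in HJ-23. Both treated libraries were below both controls, and the lower control and the higher treated library were 156 and 138 CPM. The log2 fold change was -0.47 (SE 0.17, 95% interval -0.89 to -0.04, unadjusted p = 0.0370, adjusted p = 0.389, edgeR), lower than in all but 9.4% of genes tested. It stayed below 0 in all 13 alternatives, from -0.62 to -0.32. It passed the threshold in 1 of them (adjusted p = 0.0453, edgeR), a replicate block with the numbers crossed between the groups. That block was chosen after seeing the data, and 6.87% of all genes passed in it. The exons of EIF2AK1 overlap those of AIMP2 on the opposite strand over 9.59% of their length. The strand setting of the counting is not given, so reads of these genes may be shared. AIMP2 itself had 396 and 285 counts in DMSO and 466 and 491 in HJ-23.

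EIF2AK2 (ENSG00000055332), the sensor of double-stranded RNA, was at 101 and 117 CPM in DMSO and at 122 and 79.0 CPM in HJ-23. The HJ-23 libraries enclosed both controls. Its log2 fold change was -0.12 (SE 0.23, 95% interval -0.68 to 0.44, adjusted p = 0.855, edgeR), and it was 0.15 with the GC and length correction, so its direction is not set by these data. EIF2AK3 (ENSG00000172071), the sensor in the endoplasmic reticulum, was at 34.3 and 38.4 CPM in DMSO and at 36.0 and 24.1 CPM in HJ-23. Only HJ-23 replicate 2 was below the controls, and without it the log2 fold change went from -0.27 to -0.04. With all libraries its SE was 0.23 and its 95% interval -0.84 to 0.29 (adjusted p = 0.649, edgeR). The exons of EIF2AK3 overlap those of an antisense gene on the opposite strand over 14.4% of their length. That gene is not among the genes counted, and with the strand setting not given its reads may be in the EIF2AK3 counts. EIF2AK4 (ENSG00000128829), the sensor of uncharged tRNA, was at 61.2 and 88.6 CPM in DMSO and at 67.8 and 57.9 CPM in HJ-23. Here DMSO replicate 2 was the library that stood off, and without it the log2 fold change went from -0.25 to 0.01. With all libraries its SE was 0.22 and its 95% interval -0.78 to 0.27 (adjusted p = 0.650, edgeR). The intervals of these 3 kinases include both no difference and a reduction to the size seen for EIF2AK1.

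All 4 kinases shared a pattern within the groups. DMSO replicate 2 was above DMSO replicate 1 for each of them, by 0.16 to 0.53 on the log2 scale. HJ-23 replicate 2 was below HJ-23 replicate 1 for each, with log2 ratios from -0.63 to -0.23. EIF2S1 and OMA1 had the same order of libraries. So did genes around the members, such as EIF2S2, OPA1 and HSP90AA1, while others, such as PPP1CA and HSPA5, had the opposite order. The share of all genes with this order was not counted, so the order is not shown to be particular to the kinases. Over all genes tested, the difference of replicates 1 and 2 in DMSO correlated with that in HJ-23 at -0.182, and the part of this in the kinases' values was not tested.

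Per kilobase of transcript, EIF2AK1 was the most abundant kinase mRNA in every library. Its share of the summed CPM per kilobase of the 4 kinases was 54.9% and 54.7% in DMSO and 48.9% and 52.3% in HJ-23. EIF2AK4 held 17.5% to 21.3% over the 4 libraries, EIF2AK2 14.7% to 19.3% and EIF2AK3 10.4% to 12.3%. The EIF2AK1 share was thus lower in both treated libraries, and the ranges of the other kinases overlapped between the groups, for EIF2AK2 only barely, with 15.9% in DMSO replicate 1 and in HJ-23 replicate 2. The summed level of the 4 was 63.4 to 79.6 CPM per kilobase in DMSO and 49.4 to 63.1 in HJ-23. With the median transcript length of each gene in place of the longest, EIF2AK1 still led with 52.8% to 59.5%, while EIF2AK2 came ahead of EIF2AK4. By that length the EIF2AK2 share did not overlap between the groups, at 23.0% and 21.3% in DMSO and 27.8% and 23.1% in HJ-23.

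**Figure D3:**
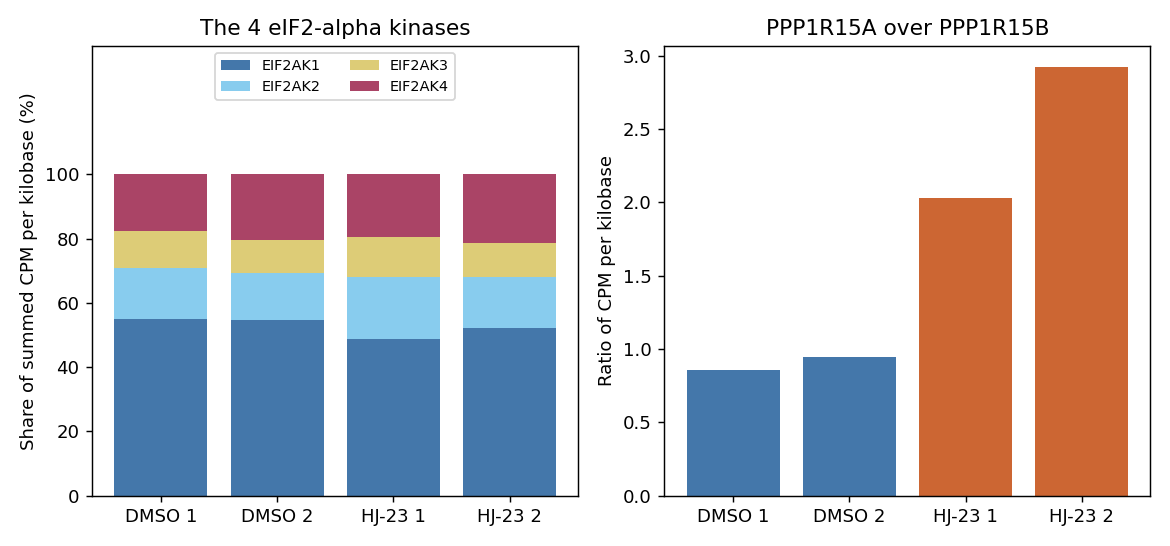
Left, share of each kinase in the summed CPM per kilobase of the 4 kinases (percent, bars stacked to 100) in each library; right, ratio of PPP1R15A to PPP1R15B in CPM per kilobase in each library. The EIF2AK1 share is 54.9% and 54.7% in DMSO and 48.9% and 52.3% in HJ-23, and the phosphatase subunit ratio is below 1 in DMSO and 2.03 and 2.92 in HJ-23.

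EIF2S1 (ENSG00000134001), which encodes eIF2-alpha itself, was at 83.9 and 94.9 CPM in DMSO and at 100.4 and 82.0 CPM in HJ-23. The treated libraries enclosed the controls, and the log2 fold change was 0.03 (SE 0.16, 95% interval -0.37 to 0.43, adjusted p = 0.956, edgeR). Its exons overlap ATP6V1D on the opposite strand over 4.76% of their length.

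Neither gene of the mitochondrial relay passed the threshold, and the intervals of both include no difference as well as a reduction. DELE1 (ENSG00000081791), the messenger, was at 56.4 and 52.9 CPM in DMSO and at 50.8 and 51.8 CPM in HJ-23. Both treated libraries were below both controls, by a margin of about 1 CPM between the nearest libraries. Its log2 fold change was -0.09 (SE 0.15, 95% interval -0.45 to 0.27, adjusted p = 0.825, edgeR). OMA1 (ENSG00000162600), the protease, was the least abundant member in CPM, at 18.0 and 21.2 in DMSO and 18.7 and 15.5 in HJ-23, and the groups overlapped. Its log2 fold change was -0.20 (SE 0.19, 95% interval -0.66 to 0.27, adjusted p = 0.696, edgeR). OMA1 shares exon sequence with DAB1 on the same strand over 6.91% of its exons, and DAB1 had 0 to 4 counts per library.

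In order of level per kilobase in DMSO, PPP1R15B came first at 64.6 ± 6.52 CPM per kilobase (SD, n = 2), followed by PPP1R15A at 58.0 ± 1.54 and EIF2AK1 at 39.2 ± 6.12. EIF2S1 followed at 19.9 ± 1.75, EIF2AK4 at 13.6 ± 3.52, DELE1 at 11.0 ± 0.495, EIF2AK2 at 10.9 ± 1.11, OMA1 at 9.31 ± 1.05 and EIF2AK3 at 7.82 ± 0.63. EIF2AK4 and DELE1 overlapped between libraries, as did DELE1 and EIF2AK2; EIF2AK2 and OMA1 both had a library at 10.1. In HJ-23 PPP1R15A came first at 153 ± 18.9 CPM per kilobase, with PPP1R15B at 63.0 ± 8.42. This order rests on the transcript length used: by the median transcript length EIF2AK1, at 248 CPM per kilobase in DMSO, was above both phosphatase subunits.

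The genes whose profile over the 4 libraries was nearest to that of PPP1R15A, by Euclidean distance of centred log2 CPM among 10094 other genes with a mean of at least 10 CPM, were NR1D1 at 0.115, WFS1 at 0.122 and NGFR at 0.129. NR1D1, a nuclear receptor of the circadian clock, was at 208 and 184 CPM in DMSO and at 470.5 and 595 CPM in HJ-23; it overlaps THRA on the opposite strand over 9.49% of its exons. WFS1, a membrane protein of the endoplasmic reticulum, was at 28.5 and 30.5 CPM in DMSO and at 68.4 and 82.4 CPM in HJ-23. NGFR, a receptor for neurotrophins, was at 103 and 98.4 CPM in DMSO and at 220.4 and 268 CPM in HJ-23. None of the 3 passed (adjusted p = 0.0875, 0.0935 and 0.0879, edgeR). A likeness over 4 libraries of 2 groups describes these libraries only.

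The wider pathway was read from 4 lists of genes around the members, 35 in all, of which 0 passed the threshold (0.0853% of all genes did). Their median log2 fold change was -0.05, 16 were positive and 19 negative, and 2 higher and 4 lower had an unadjusted p below 0.05, where all genes tested gave 952 higher and 738 lower of 14062. DESeq2 called 1, UBR4, beside 2.31% of all genes. The groups did not overlap for 7 that were higher and 9 that were lower in HJ-23, beside 24.8% and 21.2% of all genes. Of all genes tested, 51.0% were positive.

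Among the other subunits of eIF2 and the subunits of eIF2B, with the GTPase activator EIF5, 4 of 8 were positive and the median was 0.000. EIF2S2, the beta subunit of eIF2, was at 164 and 187 CPM in DMSO and at 276 and 226 CPM in HJ-23 (log2 ratio 0.52, SE 0.16, adjusted p = 0.335, edgeR). Both treated libraries were above both controls, unlike those of EIF2S1. EIF2B2, the beta subunit of eIF2B, was at 29.6 and 36.0 CPM in DMSO and at 24.4 and 27.9 CPM in HJ-23 (log2 ratio -0.33, SE 0.18, adjusted p = 0.506, edgeR).

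Of the catalytic subunits of protein phosphatase 1, which the PPP1R15 proteins recruit, 3 of 3 were negative with a median of -0.09. PPP1CB was at 261 and 252 CPM in DMSO and at 193 and 162 CPM in HJ-23, with both treated libraries lower (log2 ratio -0.53, SE 0.15, adjusted p = 0.309, edgeR). PPP1CA was at 206 and 199 CPM in DMSO and at 164 and 215 CPM in HJ-23, with overlapping groups (log2 ratio -0.09, SE 0.17, adjusted p = 0.849, edgeR). These genes are close in sequence and PPP1CA overlaps 3 neighbours on the opposite strand, so their values are uncertain.

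Of 13 regulators of the kinases, 9 were negative, with a median of -0.13, and 6 had both treated libraries below both controls, as did 21.2% of all genes. UBR4, a ubiquitin ligase of the complex that degrades DELE1 and EIF2AK1, was at 259 and 277 CPM in DMSO and at 167 and 182 CPM in HJ-23. The treated libraries were lower by more than the replicates differed (log2 ratio -0.62, SE 0.13, adjusted p = 0.235, edgeR); it passed with DESeq2 (adjusted p = 0.0182), and with the correction for GC content and length the log2 ratio was -0.31 (adjusted p = 0.243). HSP90AB1, a chaperone of EIF2AK1, was at 2020.5 and 2704 CPM in DMSO and at 1662 and 1421 CPM in HJ-23 (log2 ratio -0.62, SE 0.19, adjusted p = 0.333, edgeR).

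Of 11 proteins of inner membrane quality control, the surroundings of OMA1, 8 were positive with a median of 0.16, and 5 had both treated libraries above both controls, as did 24.8% of all genes. PGAM5, a mitochondrial phosphatase, was at 37.9 and 56.4 CPM in DMSO and at 76.0 and 92.0 CPM in HJ-23 (log2 ratio 0.83, SE 0.23, adjusted p = 0.309, edgeR). It passed in 1 of 13 alternatives, the replicate block (adjusted p = 0.0457, edgeR), in which 2.09% of all genes passed. It missed the threshold with DESeq2 (adjusted p = 0.0531) and with the GC and length correction (adjusted p = 0.228, edgeR). STOML2, a scaffold of inner membrane proteases, was at 110.4 and 102 CPM in DMSO and at 114 and 149 CPM in HJ-23 (log2 ratio 0.31, SE 0.17, adjusted p = 0.502, edgeR). The margin between the groups for STOML2 was 110.4 against 114 CPM.

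The 8 genes downstream of eIF2-alpha phosphorylation, ATF4 and genes it is known to induce, were all positive (median log2 ratio 1.22), and 1 rose past the threshold in edgeR, ATF5, where 0.0853% of all genes passed. With DESeq2 6 of the 8 passed, all but ATF3 and DDIT3, where 2.31% of all genes did. The groups overlapped for ATF3, at 95.5 and 45.3 CPM in DMSO and 81.4 and 199 CPM in HJ-23 (95% interval -0.52 to 2.51, edgeR). DDIT3 was at 86.3 and 63.2 CPM in DMSO and at 101 and 189 CPM in HJ-23. Fold changes ran with transcript GC content over all genes. It was 56.7% to 62.6% for ATF4, ATF5, TRIB3, CHAC1 and SESN2 and 46.7% to 49.7% for DDIT3, ATF3 and ASNS. ATF5, a transcription factor, was at 3.25 and 3.04 CPM in DMSO and at 16.6 and 19.0 CPM in HJ-23 (log2 ratio 2.50, SE 0.20, adjusted p = 0.0304, edgeR), a 5.65-fold difference; it overlaps NUP62 on the opposite strand over 21.2% of its exons, and without either HJ-23 library it did not pass (adjusted p = 0.0767 and 0.150). ASNS, asparagine synthetase, was at 190.0 and 186 CPM in DMSO and at 443 and 447 CPM in HJ-23 (log2 ratio 1.24, SE 0.13, adjusted p = 0.0650, edgeR). It passed in 7 of 13 alternatives, with adjusted p-values from 1.09e-10 with DESeq2 to 0.265 with edgeR. Among the 7 was the block with crossed numbers, chosen after seeing the data. With the GC and length correction the log2 ratio was 2.30 for ATF5 and 1.27 for ASNS (adjusted p = 0.0176 and 0.0254, edgeR). With the replicate block added to that correction neither passed (adjusted p = 0.108 and 0.265, edgeR). Corrected values of the other downstream genes are not given here. Without HJ-23 replicate 1 or replicate 2 ASNS did not pass. PPP1R15A, itself a target of this branch, had a fold change above the median of these 8, and the other 8 members lay below the lowest of them, 0.66. The lists and members were chosen with the direction of this branch known, so that direction is no independent evidence.

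**Figure D4:**
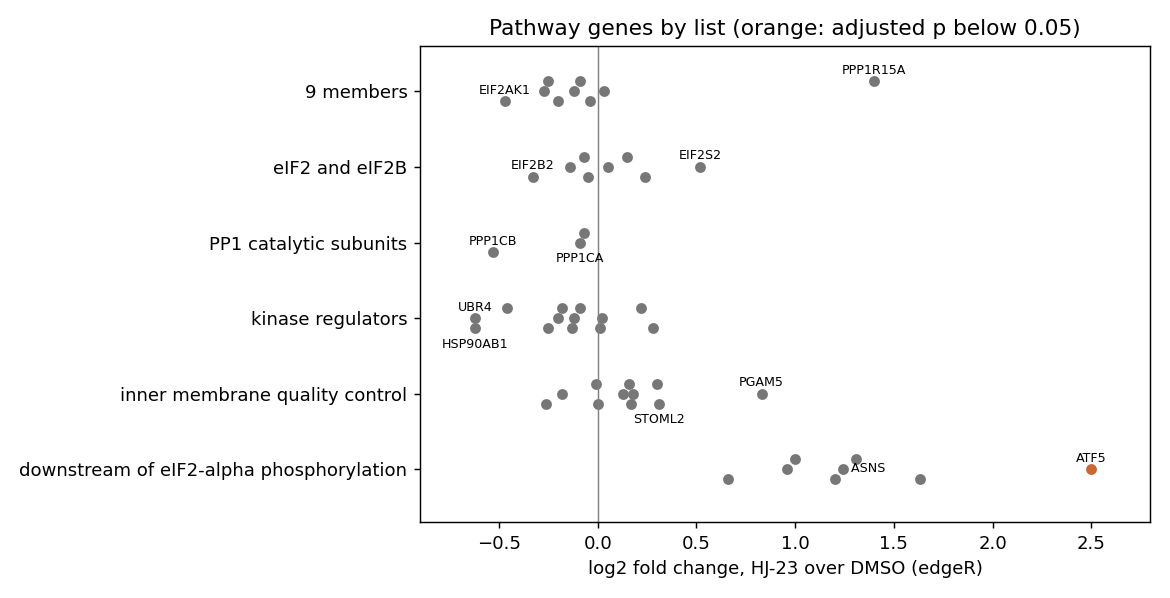
Log2 fold change of HJ-23 over DMSO from edgeR (horizontal axis) for the 9 members and the genes of 5 lists, with 1 point per gene; orange marks an adjusted p below 0.05, and the vertical offset within a row has no meaning. PPP1R15A at 1.40 lies among the downstream genes, which run from 0.66 to 2.50, and the other members lie from -0.47 to 0.03.

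**Figure D5:**
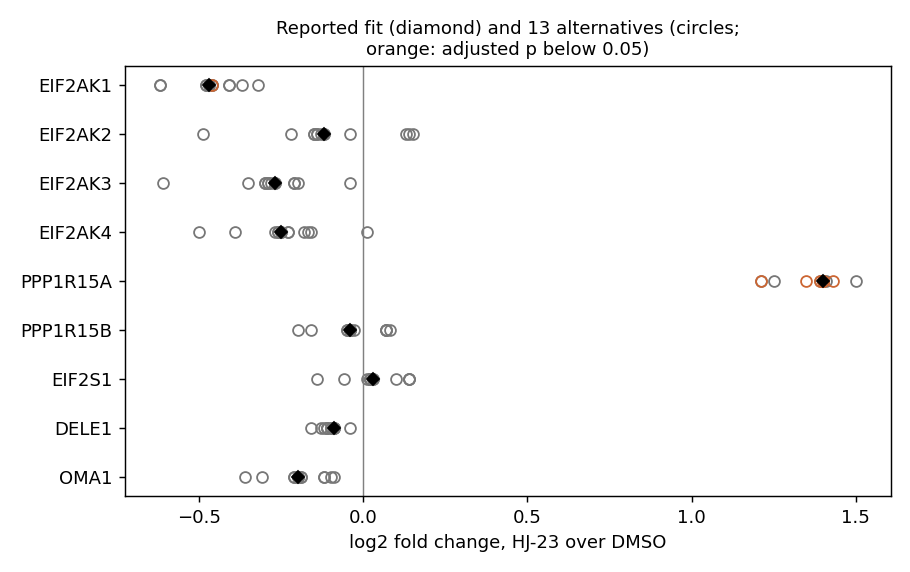
Log2 fold change of each member in the fit reported here (black diamond) and in 13 alternative fits (open circles, orange where the adjusted p is below 0.05). PPP1R15A runs from 1.21 to 1.50 and passes in 7 of 13. EIF2AK1 runs from -0.62 to -0.32 and passes only in the replicate block with crossed numbers, chosen after seeing the data and also among the 7. EIF2AK2, EIF2AK4, PPP1R15B and EIF2S1 have values on both sides of 0.

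Total counts per library ran from 29769568 to 34831207. Epithelial markers EPCAM, KRT8, KRT18, KRT19 and CDH1 were present, while VIL1 had 0 to 4 counts. Summed over the 6 epithelial markers the level was 4080 to 4508 CPM in DMSO and 4033 to 5498 in HJ-23. Of 12 markers of fibroblasts, leukocytes, endothelium and hepatocytes, 4 (COL1A2, DCN, PTPRC and CD3E) were at 0 in every library, and their sum, nearly all of it COL1A1, was 62.6 to 65.2 CPM in DMSO and 56.6 to 62.0 in HJ-23. In bulk RNA, fewer cells of a kind and less RNA per cell cannot be told apart.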

How the data were processed

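The authors deposited raw gene counts, 1 table per library, as the description labels and the whole-number values show. HISAT2, RSEM, Trimmomatic, FastQC and bedtools are named, with no role, per the submitters' processing notes; the sources used here do not give the build, the strand setting or which tool counted, so genes carry no coordinates from the counts. Between 69.6% and 72.3% of counts from 1 to 8 were even, so both mates of most pairs appear to be counted, and counts overstate the number of fragments.

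Symbols came from a gene name table (20148 identifiers) and GENCODE 29 (76), which also gave transcript length, GC content and exon overlaps; promoters came from RefSeq. Counts were fitted over all genes with edgeR 4.0.16 in R 4.3.3 (TMM, filterByExpr, robust legacy quasi-likelihood, Benjamini-Hochberg, 2 residual degrees of freedom, biological coefficient of variation 19.6%). The fit was also run on counts simulated as independent libraries from its own dispersions. Those counts hold no GC trend and no pairing of libraries, so that run does not test the fit under either. Standard errors are the log2 fold change over the square root of F. Alternatives used DESeq2 1.42.0, other scalings and filters, a GC and length correction, a replicate block and each library left out. The chi-square over its degrees of freedom between libraries was 33.1 to 126, so no library repeats another. Members and lists were chosen with earlier results of these data known. All 9 members are named, with the 2 genes of smallest p in each list, any that passed, and the 3 nearest profiles to PPP1R15A. Proteins were not used here.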

Additional observations from a re-analysis of the deposited data

How the results depend on the processing

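PPP1R15A kept its direction in all 13 alternatives, as did EIF2AK1, EIF2AK3, DELE1 and OMA1. The count of all genes called was 12; it was 311 with DESeq2, 31 without a filter, 0 with a filter at 10 CPM (1254 at an unadjusted p below 0.05), 26 with the GC and length correction and 0 to 273 with a library left out. The count of members called was 0; it was 1 (PPP1R15A) under DESeq2, under no filter and under GC and length correction, and 0 to 1 with a library left out. With a lone library in a group, the fit assumes that it varies like the other group. PPP1R15A missed the threshold with median-ratio and upper-quartile factors (adjusted p = 0.0582 and 0.0521, edgeR) and the 10 CPM filter (0.0837). Log2 fold changes that crossed 0 belonged to members that passed in no fit: with the GC and length correction EIF2AK2 was at 0.15 and PPP1R15B at 0.07. With a library left out EIF2AK2 ran from -0.49 to 0.13, EIF2AK4 from -0.50 to 0.01, PPP1R15B from -0.20 to 0.07, EIF2S1 from -0.14 to 0.14 and, outside the members, PPP1CA from -0.33 to 0.07. ATF5 missed the threshold with the 10 CPM filter (adjusted p = 0.0592, edgeR). With the median transcript length 13 of 14 per-length values moved by more than 1 SD. With the APPRIS principal transcript, an alternative chosen after seeing the data, 0 of 14 did. Its length equals that of the longest transcript for every member but OMA1 (1935 against 2105 bases), so it could not test the dependence on length. The causes of these changes were not tested.

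Libraries share only a number across groups, and with 2 pairs the numbers cannot be shown to pair them. With the replicate block, which leaves 1 residual degree of freedom, 294 genes and 1 member (PPP1R15A) were called. With the replicate block and the GC and length correction 0 genes and 0 members were called (1485 genes at an unadjusted p below 0.05), PPP1R15A had an adjusted p of 0.258 (edgeR), EIF2AK2 was at 0.14, PPP1R15B at 0.08 and ATF5 missed the threshold (adjusted p = 0.108, edgeR). Over 14062 genes, which are not independent, the differences between replicates 1 and 2 correlated weakly and negatively between the groups (-0.182). Some genes went the other way, such as PPP1R15B, with log2 ratios of replicate 2 over 1 of -0.21 in DMSO and -0.27 in HJ-23. With the numbers crossed, an alternative chosen after seeing the data, 966 genes and 2 members (PPP1R15A and EIF2AK1) were called.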
